A study of Mus musculus with 8 samples.

Results

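The genes described here are 10 mouse genes of type 2 immunity and itch, taken by gene name from the deposited tables: the cytokine genes Il33 and Tslp, the receptor genes Il4ra, Il13ra1, Il13ra2, Il1rl1 and Osmr, and the effector genes Alox15, Retnla and Arg1. All 10 were among the 56748 genes in the files, and all 10 were among the 18495 genes with enough counts to be tested. RNA came from whole skin of male mice aged 35 weeks. The NPY-tet group held 3 mice of strain B6;129S4-Npytm2Rpa/J with the genotype NPY tet/tet, and the WT group held 5 siblings with the genotype NPY +/+. Neither group received a treatment, and each library is 1 mouse. Npy encodes neuropeptide Y, a peptide transmitter of sympathetic nerves and of neurons in the brain. The cells that drive the tet allele in skin are not given in the sources used here. The study's title concerns NPY overexpression and an inflammatory, fibrotic skin response.

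Type 2 immunity is the branch of the immune response directed at parasites and allergens, and in skin it underlies atopic inflammation and itch. Damaged epithelium and stroma release the alarmins IL-33 and TSLP, which act on innate lymphoid cells, mast cells and T cells. These cells secrete IL-4 and IL-13, which signal through receptors built on IL4RA and IL13RA1 to the transcription factor STAT6. STAT6 in turn raises target genes such as Retnla, Arg1 and Alox15 in mouse macrophages. OSMR is shared by the receptors for oncostatin M and for the itch cytokine IL-31.

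None of the 10 genes passed an adjusted p of 0.05 between the genotypes by the quasi-likelihood test of edgeR, with Benjamini-Hochberg adjustment over all genes tested, where 0.00541% of all genes passed. Alox15 stood furthest apart: all 3 NPY-tet mice lay below all 5 WT mice, at about 1/3 of the WT mean, an order that 1.98% of all genes showed. DESeq2 called Alox15 lower, with 0.233% of all genes, whereas limma-voom and limma on FPKM did not call it. Arg1 and Alox15 had lower values in NPY-tet skin with an unadjusted p under 0.05, as did 3.56% of all genes. The alarmins and receptors overlapped between the genotypes. Expression is given in CPM, the count scaled to library depth, and fold changes as log2 of NPY-tet over WT with their standard error (SE).

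Libraries held 32694123 to 35953372 counts in NPY-tet skin and 31370433 to 47495565 counts in WT skin. The targeted gene Npy had 10394 to 11864 counts in NPY-tet libraries and 5 to 15 counts in WT libraries and so followed the labelled genotype. Ribosomal RNA genes took 6.44% of the counts in NPY-tet replicate 1 and 7.02% to 8.07% in WT replicates 1, 2, 3 and 5. They took 0.0388% and 0.0754% in NPY-tet replicates 2 and 3 and 0.0641% in WT replicate 4. This division, here called rRNA-rich and rRNA-poor, is named in no label and partly follows genotype. All 10 fibroblast markers were detected in every library. Their summed level was 2830 CPM in NPY-tet replicate 1, 18351 and 25918 CPM in NPY-tet replicates 2 and 3 and 10951 to 24559 CPM in WT mice. The largest terms in WT skin were the collagen genes Col1a1, Col1a2 and Col3a1. Their lowest values were 423, 508 and 353 CPM in NPY-tet skin and 3267, 3063 and 2500 CPM in WT skin. For Lum, Dpt and Fbn1 these were 69.5, 274 and 52.9 against 161, 410 and 91.9 CPM. For Pdgfra, Pdgfrb, Dcn and Fap the lowest values lay closer, at 58.5, 68.4, 1001 and 6.60 against 61.5, 64.6, 1068 and 7.59 CPM. Hair matrix and shaft markers ranged from 305 to 3050 CPM in NPY-tet skin and from 4.02 to 4792 CPM in WT skin. Basal keratinocyte markers, at 9277 to 12666 CPM in NPY-tet skin and 9141 to 14034 CPM in WT skin, were high in every library. In whole skin, fewer cells of a type and less RNA per cell cannot be told apart.

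The promoters of Retnla, a target of STAT6 in mouse macrophages, and of Il33 are shown because they are the windows among these genes that hold the spacing STAT6 prefers, TTC and GAA with 4 bases between. They come from RefSeq on the GRCm38.p6 build and run from 250 bases before to 50 bases after the annotated start. Capitals mark that spacing and TATAAA, both searched on either strand.
Retnla, plus strand, chr16:48842359-48842658: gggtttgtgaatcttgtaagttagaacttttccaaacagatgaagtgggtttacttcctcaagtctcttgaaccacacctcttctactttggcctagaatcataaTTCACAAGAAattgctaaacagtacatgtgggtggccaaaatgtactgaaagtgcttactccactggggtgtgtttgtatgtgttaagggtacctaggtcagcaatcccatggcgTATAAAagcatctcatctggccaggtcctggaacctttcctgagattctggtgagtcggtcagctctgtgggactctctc
Il33, upstream start, plus strand, chr19:29924863-29925162: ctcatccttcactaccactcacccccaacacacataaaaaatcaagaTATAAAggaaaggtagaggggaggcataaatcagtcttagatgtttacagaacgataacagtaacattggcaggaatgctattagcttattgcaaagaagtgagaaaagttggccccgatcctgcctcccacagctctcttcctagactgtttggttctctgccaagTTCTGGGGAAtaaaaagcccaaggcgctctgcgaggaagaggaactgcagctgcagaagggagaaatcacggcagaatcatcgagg
In Retnla the STAT6 spacing, TTCACAAGAA, starts at position -145 from the annotated start and the TATAAA match at -30. In Il33 the STAT6 spacing, TTCTGGGGAA, starts at -36 and the TATAAA match at -203. RefSeq promoters were in the table for 7 of the 10 genes, with 9 starts in all, since Il33 and Il1rl1 have a pair of starts each. The STAT6 spacing lay in 2 of these 9 windows, against 6.95% of all 32851 promoters in the table. TTCNNNGAA, the spacing of most other STAT proteins, lay in 0 of the 9 windows, against 8.30% of all promoters. TATAAA lay in 4 of the 9 windows, against 13.6% of all. A match describes the letters of a window and does not show binding.

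**Figure D1:**
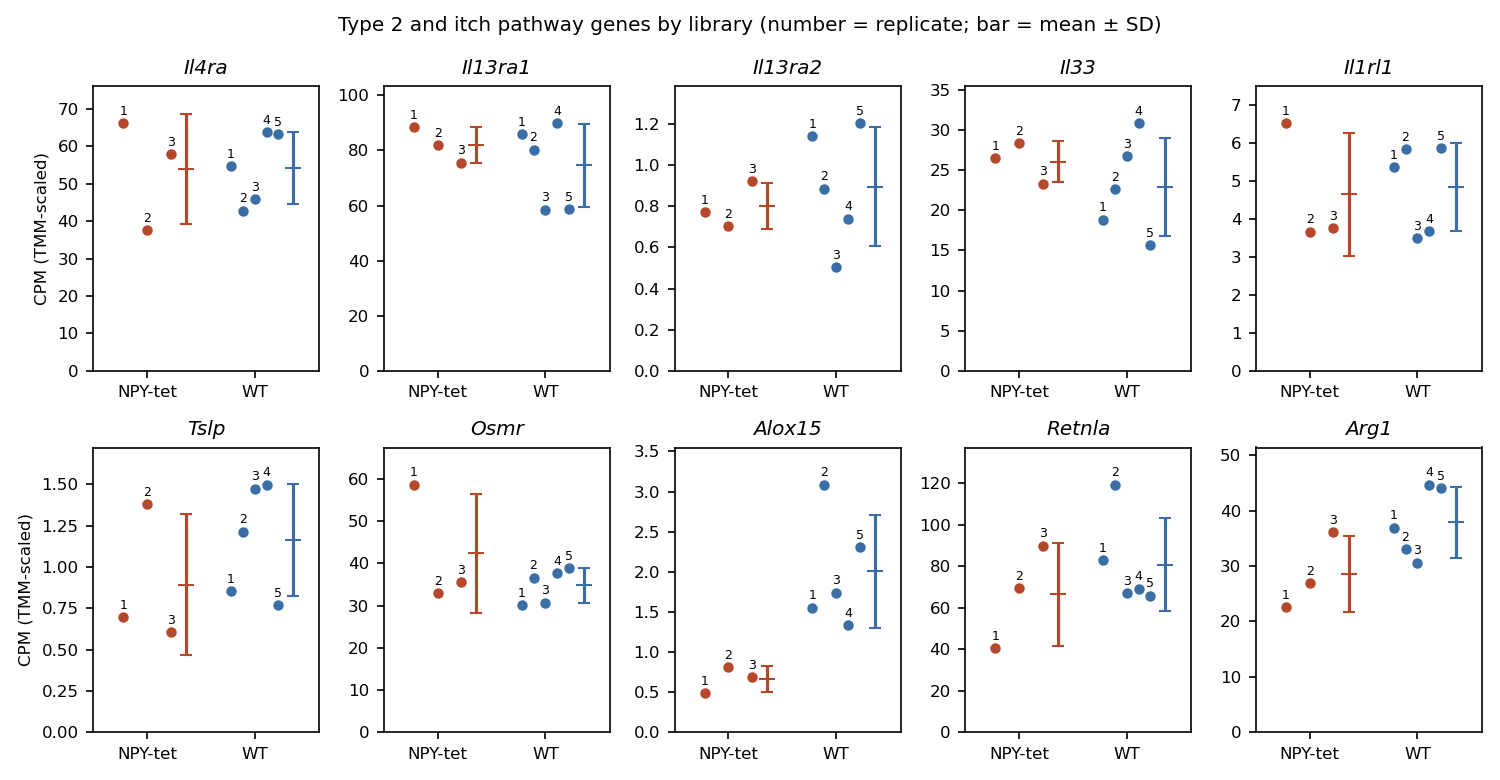
Expression of the 10 genes (TMM-scaled CPM, vertical axis from 0) in each library of NPY-tet and WT skin, with the replicate number beside each point and the mean ± SD beside each group. Alox15 is the gene in which the groups do not overlap, with NPY-tet mice at 0.489 to 0.812 CPM and WT mice at 1.34 to 3.09 CPM.

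Il33 encodes an alarmin stored in nuclei of keratinocytes, endothelium and fibroblasts and sensed by the receptor ST2. The gene (ENSMUSG00000024810) spans 29902514 to 29938118 on chromosome 19, plus strand, and this and later gene positions are in mm39. It had 26.5, 28.4 and 23.3 CPM in NPY-tet replicates 1 to 3, against 18.8, 22.6, 26.8, 30.9 and 15.6 CPM in WT replicates 1 to 5. The NPY-tet mice lay inside the WT range, which spanned a ratio of 1.97 between its highest and lowest mouse. The fold change on the log2 scale was 0.18 (SE 0.20), with a 95% interval of -0.26 to 0.62 and an adjusted p of 0.862 by edgeR. The difference was within the spread between mice, and the interval holds ratios of up to 1.54. Leaving out WT replicate 5 gave a log2 fold change of 0.08 and leaving out WT replicate 4 gave 0.32. With the hair matrix and shaft markers as a covariate it was 0.52, with an unadjusted p of 0.0311 and an adjusted p of 0.998 by edgeR.

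Tslp encodes thymic stromal lymphopoietin, an alarmin of epidermal keratinocytes that drives atopic dermatitis and acts on sensory neurons of mice. It was a low gene, with 27, 51 and 21 counts in NPY-tet libraries and 23 to 75 counts in WT libraries. It had 0.695, 1.38 and 0.605 CPM in NPY-tet replicates 1 to 3, against 0.856, 1.21, 1.47, 1.498 and 0.769 CPM in WT replicates 1 to 5. NPY-tet replicates 1 and 3 lay below every WT mouse and NPY-tet replicate 2 lay inside the WT range. On the log2 scale the fold change was -0.38 (SE 0.41), with a 95% interval of -1.27 to 0.51 and an adjusted p of 0.858 by edgeR. The value depended on single NPY-tet mice: it was -0.22 without replicate 1, -0.83 without replicate 2 and -0.16 without replicate 3, with unadjusted p of 0.652, 0.0938 and 0.731 by edgeR. With the hair matrix and shaft markers as a covariate it was -0.07. Counting alone gave an error of 15.2% per WT library, and the coefficient of variation between WT mice was 29.2%.

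Most other cytokines of the pathway had few counts or none. Of 12 cytokine genes listed, 5 had enough counts to be tested, and 0 of these passed by edgeR, 0 at an unadjusted p under 0.05 and 0 by DESeq2, limma-voom or limma on FPKM. Il4, the defining type 2 cytokine, had 29 to 44 counts in NPY-tet libraries and 19 to 45 counts in WT libraries, with a log2 fold change of 0.09 (SE 0.40). Il13, its partner, had 6 to 14 counts in NPY-tet libraries and 2 to 10 counts in WT libraries and was not tested. The itch cytokine Il31 had 0 counts in all 8 libraries, which allows at most 0.0599 to 0.1005 CPM at 3 counts per library, a limit that covers counting error only. Osm, the oncostatin gene, had 6 to 11 counts in NPY-tet libraries and 3 to 22 counts in WT libraries. Lif, a cytokine of the same family, averaged 3.77 ± 0.611 CPM in NPY-tet skin and 4.01 ± 0.743 CPM in WT skin. Areg, a growth factor that type 2 lymphoid cells release, averaged 2.21 ± 0.669 CPM in NPY-tet skin and 1.55 ± 0.391 CPM in WT skin (SD, n = 3 and 5).

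Il4ra encodes the chain shared by both IL-4 receptor types and by the signalling IL-13 receptor. The gene (ENSMUSG00000030748) spans 125151292 to 125178646 on chromosome 7, plus strand, and overlaps Gm44876, which had 3 counts over all libraries. It had 66.2, 37.6 and 57.9 CPM in NPY-tet replicates 1 to 3, against 54.6, 42.8, 45.9, 63.7 and 63.3 CPM in WT replicates 1 to 5. NPY-tet mice included both the highest and the lowest library of the study for this gene. The log2 fold change was -0.01 (SE 0.20), with a 95% interval of -0.43 to 0.42 and an adjusted p of 0.998 by edgeR. Within the rRNA-rich libraries it was 0.38 and within the rRNA-poor libraries -0.43.

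Il13ra1 encodes the chain that joins IL4RA to form the signalling IL-13 receptor of keratinocytes and fibroblasts. It lies on chromosome X at 35375763 to 35434912 on the plus strand. It had 88.5, 82.0 and 75.6 CPM in NPY-tet replicates 1 to 3, against 85.9, 80.3, 58.5, 89.9 and 58.7 CPM in WT replicates 1 to 5. The NPY-tet mice lay inside the WT range, whose lowest values were those of replicates 3 and 5. The fold change on the log2 scale was 0.14 (SE 0.16), with a 95% interval of -0.22 to 0.50 and an adjusted p of 0.877 by edgeR.

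Il13ra2 encodes a receptor with a short tail that binds IL-13 tightly and acts largely as a decoy. It lies on the minus strand of chromosome X at 146166472 to 146212188, in a region apart from Il13ra1. It had 30, 26 and 32 counts in NPY-tet replicates 1 to 3, against 15 to 37 counts in WT libraries. In CPM these were 0.772, 0.704 and 0.922 in NPY-tet mice, against 1.14, 0.885, 0.502, 0.739 and 1.203 in WT mice, with full overlap. On the log2 scale the fold change was -0.16 (SE 0.40), with a 95% interval of -1.02 to 0.70 and an adjusted p of 0.943 by edgeR. On the FPKM scale, which is per gene length, Il13ra1 exceeded the decoy by 64.1 ± 11.9 times in NPY-tet skin and by 55.6 ± 18.5 times in WT skin (SD, n = 3 and 5).

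Il1rl1 encodes ST2, the IL-33 receptor of mast cells, innate lymphoid cells and type 2 T cells, and its counts join the membrane and the soluble form. It lies on chromosome 1 at 40468730 to 40504575. It had 6.51, 3.66 and 3.75 CPM in NPY-tet replicates 1 to 3, against 5.36, 5.82, 3.48, 3.68 and 5.85 CPM in WT replicates 1 to 5. NPY-tet replicate 1 held the highest value of all libraries and the other NPY-tet mice stood near the lowest WT mice. The log2 fold change was -0.06 (SE 0.28), with a 95% interval of -0.66 to 0.55 and an adjusted p of 0.973 by edgeR, and without NPY-tet replicate 1 it was -0.38. The summed level of 10 mast cell markers, all detected in every library, was 196, 122 and 143 CPM in NPY-tet replicates 1 to 3. In WT replicates 1 to 5 it was 176, 160, 193, 181 and 185 CPM. WT replicate 3 thus had the highest sum among WT mice and the lowest Il1rl1, and WT replicate 2 the lowest sum with 5.82 CPM of Il1rl1. The part of mast cells in the result was not tested.

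Osmr encodes the oncostatin M receptor, expressed by keratinocytes, fibroblasts and itch neurons. The gene lies on the minus strand of chromosome 15 at 6843058 to 6904450. It had 58.6, 33.0 and 35.6 CPM in NPY-tet replicates 1 to 3, against 30.0, 36.6, 30.7, 37.6 and 38.8 CPM in WT replicates 1 to 5. The WT mice were close together, with the smallest coefficient of variation of the 10 genes (11.8%), and a single NPY-tet mouse stood above them. The fold change on the log2 scale was 0.29 (SE 0.19), with a 95% interval of -0.12 to 0.70 and an adjusted p of 0.808 by edgeR. Without NPY-tet replicate 1 it was -0.01, and in the rRNA-poor set, which does not hold that mouse, it was -0.15. In the rRNA-rich set, where that mouse alone stands for NPY-tet, it was 0.80 (SE 0.21), with an adjusted p of 0.0975 by edgeR. The sum of the neutrophil markers was also highest in that mouse, at 21.0 CPM. It was 7.31 and 5.04 CPM in NPY-tet replicates 2 and 3 and 5.76 to 7.29 CPM in WT mice. Most of the sum in NPY-tet replicate 1 was S100a8 and S100a9, at 10.4 and 5.15 CPM, so it does not show a rise across the list. Ly6g, Camp and Cxcr2 had at most 2, 4 and 9 counts in NPY-tet libraries. Of the 5 tested markers 3 had a log2 fold change above 0 and 2 below. Of the 10 neutrophil markers 6 were detected in every library and Ngp was at 0 in all, and the part of these cells in the result was not tested.

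The receptor partners and the shared signalling genes did not pass the test. Of 14 partner receptors and regulators 13 were tested. Their median log2 fold change was -0.03, against 0.004 over all genes tested, and 0 passed by edgeR, at an unadjusted p under 0.05 or by the other tools. Crlf2, the TSLP-binding receptor chain, averaged 13.7 ± 3.35 CPM in NPY-tet skin and 18.2 ± 3.48 CPM in WT skin. Il2rg, the chain that completes the lymphoid IL-4 receptor, averaged 7.30 ± 1.32 CPM in NPY-tet skin and 9.83 ± 2.54 CPM in WT skin. Il1rap, the co-receptor of ST2, averaged 25.1 ± 4.31 CPM in NPY-tet skin and 20.2 ± 2.49 CPM in WT skin. Sigirr, a receptor of the same family that dampens its signals, averaged 7.83 ± 1.48 CPM in NPY-tet skin and 5.66 ± 1.37 CPM in WT skin. Il7r, which pairs with CRLF2, and Il6st, which pairs with OSMR, did not pass either, with a log2 fold change of -0.13 (SE 0.29) for Il7r and -0.17 (SE 0.15) for Il6st. Of 16 JAK-STAT genes, all tested, 0 passed by edgeR or the other tools. By edgeR 1 was lower at an unadjusted p under 0.05, against 3.56% of all genes. That gene was Socs1, a feedback inhibitor of JAK kinases induced by cytokines including interferons, at 4.80 ± 0.290 CPM in NPY-tet skin and 7.60 ± 1.61 CPM in WT skin. Stat6 averaged 142 ± 14.6 CPM in NPY-tet skin and 150 ± 11.9 CPM in WT skin, and it overlaps Nab2 on the other strand, so their reads cannot be told apart in libraries that do not keep strand. Of 10 genes of IL-33 and TSLP signalling, all tested, 0 passed by edgeR, at an unadjusted p under 0.05 or by the other tools, and the adaptor gene Myd88 averaged 33.0 ± 1.38 CPM in NPY-tet skin and 30.1 ± 2.86 CPM in WT skin.

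**Figure D2:**
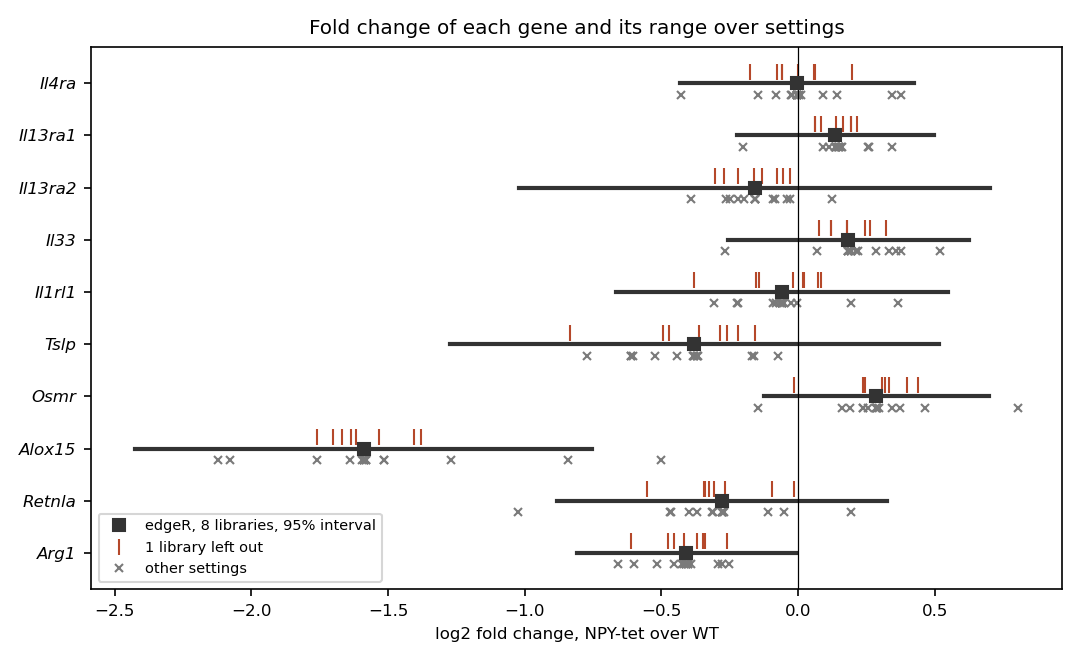
Log2 fold change of NPY-tet over WT (horizontal axis) for each of the 10 genes by edgeR with its 95% interval (squares and bars), with 1 library left out (red ticks) and under the other settings (grey crosses). Over the settings Alox15 stays below 0, from -2.12 to -0.50, where -0.50 is the fit on log2(FPKM + 1). Tslp, from -0.83 to -0.07, and Arg1, from -0.66 to -0.25, also stay below 0. The 95% intervals of Alox15 and Arg1 lie below 0, whereas those of Retnla, the alarmins and the receptors cross 0.

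Alox15 encodes a lipoxygenase that makes lipid mediators from polyunsaturated fatty acids, known in mice from resident peritoneal macrophages and eosinophils. The gene (ENSMUSG00000018924) lies on the minus strand of chromosome 11 at 70234978 to 70242857 and has 2454 bases in the files' gene model. It had 19, 30 and 24 counts in NPY-tet replicates 1 to 3, against 49, 122, 52, 67 and 69 counts in WT replicates 1 to 5. In CPM these were 0.489, 0.812 and 0.691 in NPY-tet mice, against 1.55, 3.09, 1.74, 1.34 and 2.31 in WT mice. Every NPY-tet mouse lay below every WT mouse, and of the 10 genes Alox15 alone had such an order. The opposite order, every NPY-tet mouse above every WT mouse, held for 0 of the 10 and 1.81% of all genes tested, and either order for 3.78%. The mean was 0.664 ± 0.163 CPM in NPY-tet skin and 2.01 ± 0.703 CPM in WT skin (SD, n = 3 and 5).

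The log2 fold change of Alox15 was -1.59 (SE 0.38). As a ratio this is 0.332, with a 95% interval from 0.186 to 0.593. Its unadjusted p by edgeR was 0.00139, the 47th smallest of 18495, and the adjusted p was 0.535, so it did not pass over all genes. At this threshold edgeR called 0.00541% of all genes, 1 gene, which is Npy. DESeq2 called Alox15 lower with an adjusted p of 0.0219, alongside 0.233% of all genes called lower by that tool. Over its 23 alternative settings the adjusted p ranged from 0.0219 to 1.00, and every value of the log2 fold change was below 0. A two-sided exact permutation test over the 56 ways to label 3 of the 8 libraries NPY-tet gave p = 0.0179, the smallest that 3 against 5 libraries can give. On the log2 scale the fold change reached -2.12 (SE 0.64) in the rRNA-rich set, where NPY-tet replicate 1 stood against 4 WT mice. It was -0.84 (SE 0.77) within the rRNA-poor libraries, where WT replicate 4, the lowest WT mouse, was the sole WT mouse.

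The summed level of 12 macrophage markers, all detected in every library, was 758 to 1235 CPM in NPY-tet skin and 1196 to 1693 CPM in WT skin. With the mean of these markers as a covariate the log2 fold change of Alox15 was -2.08 (SE 0.48). White adipocyte markers, 10 of 10 detected in every library, summed to 3022 to 7138 CPM in NPY-tet skin and 5074 to 8687 CPM in WT skin, and with their mean as a covariate the log2 fold change was -1.76 (SE 0.48). With the hair matrix and shaft markers as a covariate it was -1.59 (SE 0.45). Of 11 eosinophil and basophil markers 5 were detected in every library. The 11 summed to 10.3 to 12.8 CPM in NPY-tet skin and 11.8 to 19.2 CPM in WT skin. Most of this sum was Ear2, at 10.1 ± 1.35 CPM in NPY-tet skin and 12.5 ± 2.67 CPM in WT skin. Every other marker of the list averaged under 1 CPM. The defining members of the list were near 0. Epx had 0 to 4 counts in NPY-tet libraries and 0 to 1 in WT libraries, and Prg2 had 2 to 7 counts in NPY-tet libraries and 0 to 11 in WT libraries. Siglecf, a receptor of eosinophils that some macrophages also carry, had 8 to 31 counts in NPY-tet libraries and 16 to 51 counts in WT libraries. The part of eosinophils in the result was not tested.

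The genes whose log2 CPM followed Alox15 most closely over the 8 libraries were Strip2 (Pearson r 0.95), Fam149b (Pearson r 0.93) and Adrb3 (Pearson r 0.93). They lead 13764 genes with a mean of 1 CPM or more, and the r describes likeness in these libraries only. Adrb3, the adrenergic receptor of adipocytes, averaged 33.2 ± 3.39 CPM in NPY-tet skin and 61.7 ± 13.3 CPM in WT skin. Of the other lipoxygenase and eicosanoid genes, 19 were listed and tested. Their median log2 fold change was -0.09. By edgeR 0 of the 19 passed, as by the other tools. At an unadjusted p under 0.05 there were 3 lower and 1 higher, against 3.56% and 2.43% of all genes. Alox12e, an epidermal lipoxygenase, averaged 210 ± 44.3 CPM in NPY-tet skin and 334 ± 59.1 CPM in WT skin. Ephx2, the soluble epoxide hydrolase that acts on lipid epoxides, averaged 38.8 ± 9.31 CPM in NPY-tet skin and 59.5 ± 6.06 CPM in WT skin. Aloxe3, which acts in the epidermal barrier lipid pathway, averaged 55.0 ± 15.2 CPM in NPY-tet skin and 31.4 ± 9.92 CPM in WT skin. Lipoxygenase genes therefore lay on both sides of 0.

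Retnla encodes RELM-alpha, a secreted protein that marks alternatively activated macrophages in mice and is also made by adipose tissue. The gene (ENSMUSG00000061100) spans 48662914 to 48664824 on chromosome 16, plus strand. It had 40.6, 69.4 and 89.9 CPM in NPY-tet replicates 1 to 3, against 83.1, 119, 66.9, 69.2 and 65.8 CPM in WT replicates 1 to 5. NPY-tet replicate 1 lay below every WT mouse, WT replicate 2 above every other mouse, and the remaining libraries overlapped. The log2 fold change was -0.28 (SE 0.27), with a 95% interval of -0.88 to 0.33 and an adjusted p of 0.848 by edgeR. Without NPY-tet replicate 1 it was -0.02 and within the rRNA-rich libraries, where that mouse is the sole NPY-tet mouse, it was -1.02. Within the rRNA-poor libraries it was 0.19.

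Its relative Retn, the adipocyte hormone resistin, averaged 69.5 ± 29.5 CPM in NPY-tet skin and 121 ± 24.6 CPM in WT skin (SD, n = 3 and 5). The log2 fold change of Retn was -0.80 (SE 0.26), with an unadjusted p of 0.0109 and an adjusted p of 0.711 by edgeR. Retn is itself among the 10 white adipocyte markers, all of which had a log2 fold change below 0, with a median of -0.50. Of these, 3 were lower at an unadjusted p under 0.05 by edgeR, against 3.56% of all genes. The part of adipocyte content in the value of Retn was not tested. The remaining tested member of the resistin family, the neutrophil gene Retnlg, had 5 to 31 counts in NPY-tet libraries and 3 to 19 counts in WT libraries.

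Arg1 encodes arginase, which turns arginine into ornithine and urea, marks alternatively activated macrophages in mice and is also made by keratinocytes. The gene (ENSMUSG00000019987) lies on the minus strand of chromosome 10 at 24791119 to 24803382. It had 22.6, 26.9 and 36.04 CPM in NPY-tet replicates 1 to 3, against 36.9, 33.0, 30.6, 44.7 and 44.0 CPM in WT replicates 1 to 5. NPY-tet replicates 1 and 2 lay below every WT mouse and NPY-tet replicate 3 lay inside the WT range. The fold change on the log2 scale was -0.41 (SE 0.18). As a ratio this is 0.753, with a 95% interval from 0.570 to 0.994. The unadjusted p was 0.0462 and the adjusted p 0.794 by edgeR, and the two-sided exact permutation p was 0.0893. Leaving out NPY-tet replicate 1 gave -0.26 and leaving out NPY-tet replicate 3 gave -0.61. The value was -0.28 with the macrophage markers as a covariate (unadjusted p of 0.291 by edgeR) and -0.29 with the white adipocyte markers (unadjusted p of 0.201 by edgeR). Over the 23 alternatives its unadjusted p ranged from 0.0073 to 0.291. In the rRNA-rich set the value was -0.66 and in the rRNA-poor set it was -0.52.

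Of the other genes of arginine metabolism 14 of 15 were tested. Their median log2 fold change was -0.05, and 0 passed by edgeR or the other tools. At an unadjusted p under 0.05 by edgeR there was 1, which was lower, against 3.56% of all genes. That gene was Nos2, the inducible nitric oxide synthase that competes for arginine, at 1.83 ± 0.267 CPM in NPY-tet skin and 2.99 ± 0.677 CPM in WT skin. Nos3, the endothelial synthase, averaged 11.6 ± 3.28 CPM in NPY-tet skin and 15.6 ± 2.38 CPM in WT skin. Srm, the spermidine synthase gene, averaged 35.6 ± 5.07 CPM in NPY-tet skin and 41.5 ± 7.01 CPM in WT skin.

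**Figure D3:**
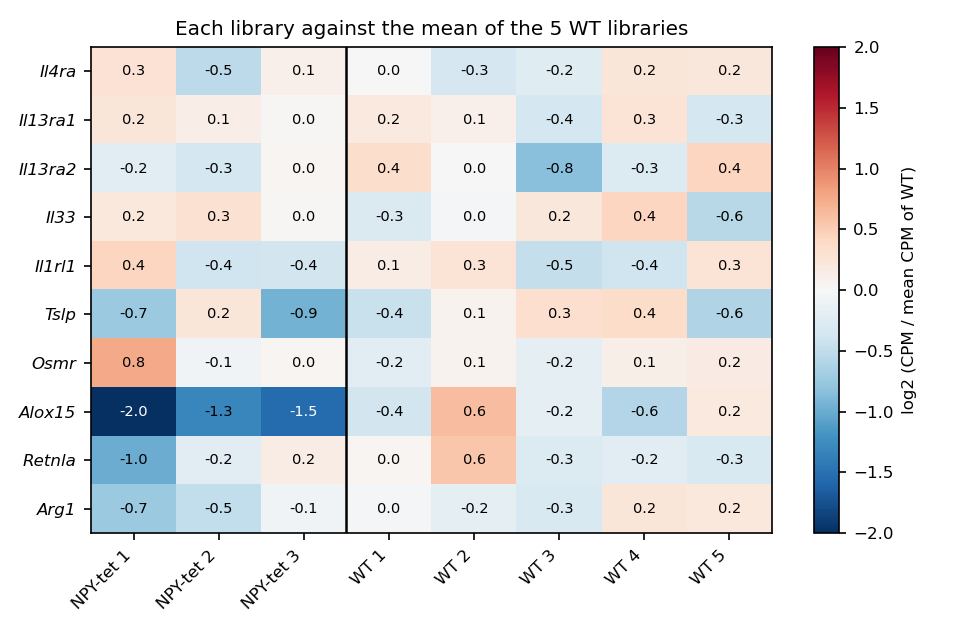
Log2 ratio of the CPM in each library to the mean of the 5 WT libraries for each of the 10 genes (colour scale from -2 to 2), with NPY-tet libraries left of the line. The rows of Alox15 and Arg1 are below 0 in all NPY-tet libraries, and some WT libraries are below 0 in both rows as well. NPY-tet replicate 1 is the highest library for Il4ra, Il1rl1 and Osmr and the lowest for Alox15, Retnla and Arg1.

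Over the 10 genes the median log2 fold change was -0.11, against 0.004 over all genes tested, with 3 genes above 0 and 7 below. By edgeR 0 of the 10 passed, against 0.00541% of all genes. At an unadjusted p under 0.05 there were 2, Alox15 and Arg1, both lower, against 3.56% of all genes lower and 2.43% higher. By DESeq2 1 passed, which was lower, against 0.369% of all genes, with 0.136% higher and 0.233% lower. By limma-voom 0 of the 10 passed, against 0.0162% of all genes, each of them higher. By limma on log2(FPKM + 1) 0 of the 10 passed, against 0.0108% of all genes, each of them higher. At an unadjusted p under 0.05 each of these 3 tools gave 2 of the 10, against 7.49% of all genes by DESeq2, 12.1% by limma-voom and 6.87% by limma on log2(FPKM + 1). Per gene length, the order in NPY-tet skin was Retnla (110 ± 41.1 FPKM), Il13ra1 (21.8 ± 1.70 FPKM), Arg1 (12.7 ± 3.07 FPKM), Il33, Il4ra, Osmr (3.46 ± 1.1 FPKM), Il1rl1, Tslp, Il13ra2 and Alox15 (0.268 ± 0.0657 FPKM). In WT skin it was Retnla (133 ± 37.0 FPKM), Il13ra1 (19.9 ± 3.98 FPKM), Arg1 (16.8 ± 2.88 FPKM), Il4ra, Il33, Osmr (2.84 ± 0.348 FPKM), Tslp, Alox15 (0.808 ± 0.284 FPKM), Il1rl1 and Il13ra2 (0.388 ± 0.125 FPKM). Neighbours whose libraries overlapped were Il33 and Il4ra in both groups, Il1rl1 and Tslp, and Il13ra2 and Alox15 in NPY-tet skin. In WT skin they were also Il13ra1 and Arg1, Tslp and Alox15, Alox15 and Il1rl1, and Il1rl1 and Il13ra2.

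Correlations between the 10 genes over the 8 libraries had both signs. Of their 45 pairs, 24 had a positive and 21 a negative correlation of log2 CPM, and 0 passed after adjustment. The pair with the smallest p was Il13ra2 and Il33, with a Pearson r of -0.82 (exact permutation p = 0.0134, and 0.604 adjusted over the pairs) and a Spearman rho of -0.88 (exact permutation p = 0.00724, and 0.326 adjusted). Without the 2 libraries farthest from the median of Il13ra2, WT replicates 3 and 5, r was -0.96. The rRNA-rich and rRNA-poor sets hold 5 and 3 libraries, too few for a correlation within each. Genes outside the list that followed a member most closely were Map4k1 for Arg1 (Pearson r 0.98), Cbx5 for Retnla (Pearson r 0.98), Ahr for Osmr (Pearson r 0.98), Zfp688 for Il13ra1 (Pearson r 0.97), Igkv1-117 for Il4ra (Pearson r 0.97) and Lsm6 for Tslp (Pearson r 0.97). For the others they were Rps27a for Il33 (Pearson r 0.95), Trp53bp1 for Il13ra2 (Pearson r 0.94) and Snx30 for Il1rl1 (Pearson r 0.94). Alox15 and Retnla, both effector genes, had a Pearson r of 0.61 (exact permutation p = 0.107, and 0.626 adjusted over the pairs) and a Spearman rho of 0.24 (exact permutation p = 0.582, and 0.931 adjusted). Without NPY-tet replicate 1 and WT replicate 2 that r was -0.57, so the relation rests on those libraries.

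Genes listed here as targets of IL-4 and IL-13, beyond the 10 genes, lay on both sides of 0, more of them below. Whether each responds to these cytokines in skin was not tested. Of 30 listed genes, 24 were tested for genotype, with 8 above 0 and 16 below. Their median log2 fold change was -0.19, and 0 passed by edgeR or the other tools. At an unadjusted p under 0.05 there were 4 lower and 2 higher. Ccl8, a chemokine of skin macrophages that recruits type 2 T cells in mice, averaged 63.3 ± 19.2 CPM in NPY-tet skin and 105 ± 26.3 CPM in WT skin. Irf4, a transcription factor of alternatively activated macrophages, averaged 20.7 ± 5.57 CPM in NPY-tet skin and 30.3 ± 5.42 CPM in WT skin. Cd163, a haemoglobin scavenger receptor of resident macrophages, averaged 94.1 ± 23.3 CPM in NPY-tet skin and 57.1 ± 17.1 CPM in WT skin. Of the 12 macrophage markers, which include Cd163, 10 had a log2 fold change below 0 and 2 above, with a median of -0.42. At an unadjusted p under 0.05 by edgeR 6 were lower and 1 higher, and DESeq2 called 1 lower, Folr2 (adjusted p of 0.0314). Over all genes edgeR gave 3.56% lower and 2.43% higher at that unadjusted p, and DESeq2 called 0.233% lower. The part of macrophage content in the values of these listed genes was not tested. Chil3, a chitinase-like gene listed as a target, had 1 to 85 counts in NPY-tet libraries and 2 to 11 counts in WT libraries and was not tested. Its NPY-tet counts came to 90 in total, so 1 library held most of them.

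Itch receptors, channels and mediators also did not pass. Of 39 listed genes 24 were tested. Their median log2 fold change was -0.06, and 0 passed by edgeR or the other tools. At an unadjusted p under 0.05 there were 2, both lower. These were Ctss, the protease cathepsin S, at 51.9 ± 11.9 CPM in NPY-tet skin and 87.1 ± 19.5 CPM in WT skin, and the histamine receptor gene Hrh2, at 1.51 ± 0.414 CPM in NPY-tet skin and 2.76 ± 0.673 CPM in WT skin. Ctss is also a gene of macrophages and dendritic cells. Of the 11 dendritic and Langerhans cell markers, 8 had a log2 fold change below 0, with a median of -0.38. The markers summed to 1342 to 2218 CPM in NPY-tet skin and 2148 to 3584 CPM in WT skin, with Cd74, H2-Aa and H2-Ab1 weighing most. By edgeR 4 were lower at an unadjusted p under 0.05, namely Itgax, H2-Aa, H2-Ab1 and Cd74. Cd207, Mgl2 and Xcr1 were at -0.38, -0.23 and -0.81. Flt3, Zbtb46, Clec9a and Ccr7 were at 0.04, -0.07, 0.03 and 0.39. The part of dendritic and Langerhans cells in the value of Ctss was not tested. Hdc, which makes histamine, averaged 4.17 ± 2.02 CPM in NPY-tet skin and 2.41 ± 0.838 CPM in WT skin. Among receptors of sensory neurons, Mrgpra3 had 0 counts in all libraries. Of 8 sensory neuron markers 2 had enough counts to be tested, the same number was detected in every library, and Scn9a was at 0 in all. With so little of their RNA present, these values say little about itch neurons. Trpv1, the capsaicin receptor gene, averaged 1.56 ± 0.631 CPM in NPY-tet skin and 2.36 ± 0.222 CPM in WT skin, with a log2 fold change of -0.60 (SE 0.31) and an adjusted p of 0.796 by edgeR. The cells that hold this RNA in whole skin were not determined. Of 13 genes of type 2 lymphocytes, all tested, 0 passed by edgeR or the other tools, and at an unadjusted p under 0.05 there was 1, the chemokine receptor gene Ccr8, which was lower. The lists together held 140 distinct tested genes, of which 11.4% had an unadjusted p under 0.05, 13 lower and 3 higher. Over all genes the share was 5.99%, with 3.56% lower and 2.43% higher. The markers of macrophages, of dendritic and Langerhans cells and of white adipocytes given above had medians below 0 as well, and their part in these counts was not tested.

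**Figure D4:**
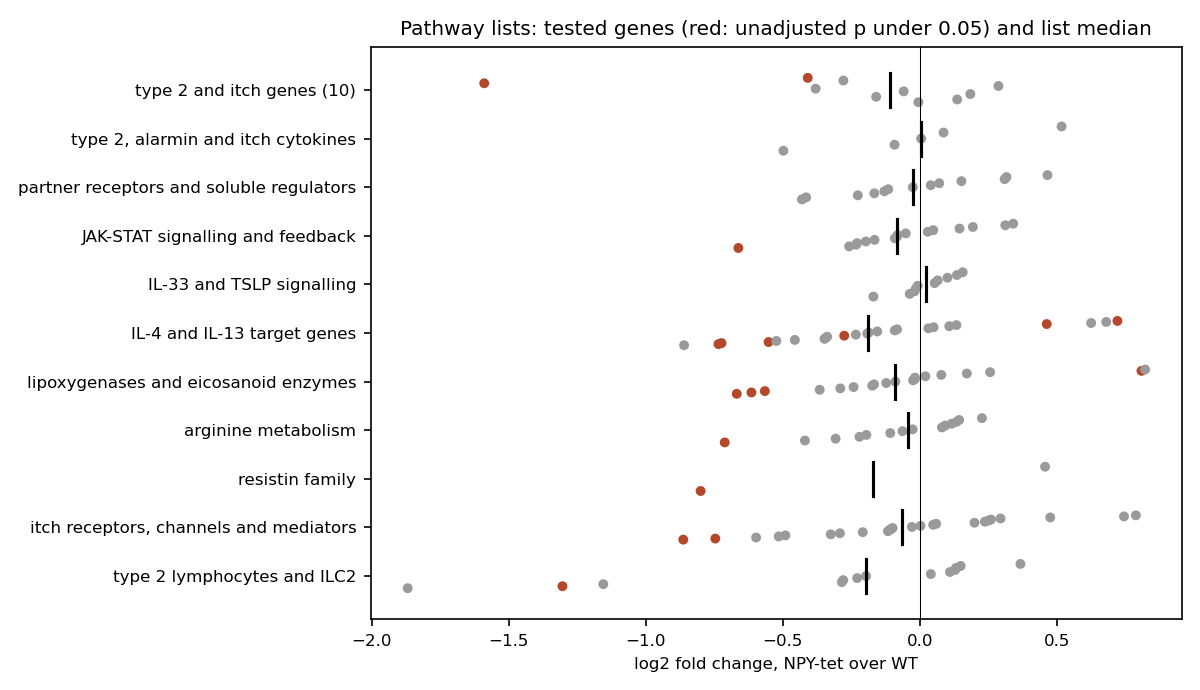
Log2 fold change of NPY-tet over WT (horizontal axis) for each tested gene of the pathway lists (points, red where the unadjusted edgeR p is under 0.05) and the median of each list (black bars). Medians lie between -0.20 and 0.02 and no gene shown passed after adjustment by edgeR.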

How the data were processed

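Gene counts as deposited are whole numbers, with 1 column per mouse. The deposited FPKM equal those counts divided by the listed gene length and by 1 constant per column. The submitters' processing notes name HISAT2 2.0.5, CASAVA, mm39, DESeq2 1.20.0 and featureCounts 1.5.0-p3; their roles and the annotation release are not given in the sources used here. Libraries were poly-T selected and non-directional, per the labels. Columns were matched to samples by the mouse number in the title. Library names in the descriptions carry another mouse number for samples 3 to 8, with the same genotype.

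Counts were compared with edgeR 4.0.16 in R 4.3.3 (filterByExpr, TMM, robust quasi-likelihood, genotype alone in the model; two-sided F-test, Benjamini-Hochberg over 18495 genes). The SE was taken from the F statistic. Log2 CPM used a prior count of 2. Alternatives used DESeq2 1.42.0 and limma 3.58.1 (voom with quality weights, or log2 FPKM with a pseudocount of 1 or 0.1), other normalizations and filters, single libraries left out, and covariates. Libraries were called rRNA-rich above 1% of counts in ribosomal RNA genes. Simulated counts with planted changes were run through edgeR, DESeq2 and limma-voom with genotype alone, and their recovery is not given here. The fits on FPKM, with covariates or within rRNA sets, the permutation tests and the correlations were not tried on simulated data. Each library is a separate mouse.

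The members, lists and tests were chosen with earlier results of these data known. Named genes were the members, their receptor partners and ligands, up to 3 genes per list with the smallest p and a mean of 1 CPM or more, and the genes most like a member. Ccr8, Chil3, Retnlg, Mrgpra3, Trpv1, Folr2, Ngp, Epx, Prg2, Ear2 and Siglecf were named after their values were seen. So were the further single markers of neutrophils, fibroblasts, dendritic cells and sensory neurons.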

Additional observations from a re-analysis of the deposited data

How the results depend on the processing

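Over all genes 1 gene, Npy, passed by edgeR. The count was 21 with no filter on low counts, 68 by DESeq2, 3 by limma-voom, 2 by limma on log2(FPKM + 1) and 2 with a pseudocount of 0.1. It was 11 when the rRNA set was a covariate, 332 in the rRNA-rich libraries alone and 227 in the rRNA-poor libraries alone, and 1 to 8 with 1 library left out (8 without NPY-tet replicate 3). Of the 10 members 0 passed, and 1 passed by DESeq2 (Alox15, adjusted p = 0.0219). In each rRNA set 1 group is a single library, assumed to vary like the other group. The causes were not tested.

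Alox15, Tslp and Arg1 kept their direction in all 23 alternatives. The log2 fold change of Il4ra turned positive with the stricter filter (0.0028), with the replicate block (0.14), with the rRNA set (0.010), the white adipocyte score (0.091) or the macrophage score (0.34) as a covariate, and within the rRNA-rich libraries (0.38). That of Il1rl1 turned positive when the rRNA set was a covariate (0.19) and in the rRNA-rich libraries (0.37). Within the rRNA-poor libraries the sign turned for Il13ra1 (-0.20), Il13ra2 (0.13), Il33 (-0.27), Osmr (-0.15) and Retnla (0.19). With 1 library left out the values ran from -0.18 to 0.20 for Il4ra, -0.38 to 0.085 for Il1rl1, -0.015 to 0.44 for Osmr, 0.075 to 0.32 for Il33 and -0.83 to -0.16 for Tslp. With the replicate block Arg1 was -0.25 (unadjusted p = 0.253 by edgeR). Il13ra2 could not be fitted under the stricter filter. With the pseudocount of 1, the log2 fold change of Alox15 was -0.50.

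No label says that libraries of the same replicate number belong together. Same-numbered libraries had correlations of their deviations of -0.044, -0.11 and 0.30, which cannot settle whether they do. With the replicate block 1 gene passed and 0 members did. Counting error per WT library was 11.8% for Alox15, 15.2% for Tslp and 17.7% for Il13ra2, below their coefficients of variation between WT mice of 35.1%, 29.2% and 32.3%.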
